A study of Mus musculus with 4 samples.

Results

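The 6 genes of podocyte transcription factors, Wt1, Tcf21, Foxc1, Foxc2, Foxd1 and Lmx1b, were followed by symbol through single-cell libraries of mouse glomeruli, 6 of the 52636 genes counted. Glomeruli, the capillary tufts that filter the blood, were prepared from young and from aged mice and gave 2 young and 2 aged libraries. Mice were perfused with magnetic beads, which lodge in glomerular capillaries, and glomeruli holding beads were caught with a magnet and dissociated. All mice were untreated; neither age in months, strain, genotype, sex nor the number of mice per library was given in the sources used here. Nothing in the labels says that replicates came from separate animals, so the p-values measure only the spread between these libraries, which may be technical.

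Podocytes are the epithelial cells whose foot processes wrap the glomerular capillaries and form the slit diaphragm of the filter. Their identity is held by a small network of DNA-binding proteins. WT1 is a zinc-finger protein whose gene is altered in Wilms tumour and in inherited podocyte disease, and it is needed for the expression of slit diaphragm genes such as Nphs1. TCF21 is a basic helix-loop-helix protein that pairs with E proteins on E-box DNA. FOXC1, FOXC2 and FOXD1 are forkhead proteins; Foxd1 also marks the stromal progenitors of the embryonic kidney from which mesangial cells arise. LMX1B is a LIM-homeodomain protein whose gene is mutated in nail-patella syndrome.

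The gene positions in GRCm38, from the GENCODE annotation, were as follows. Wt1 (ENSMUSG00000016458) lies on chromosome 2 from 105126529 to 105173616 on the plus strand and Lmx1b (ENSMUSG00000038765) on chromosome 2 from 33560965 to 33640511 on the minus strand. Tcf21 (ENSMUSG00000045680) lies on chromosome 10 from 22817281 to 22820174, minus strand. Foxc1 (ENSMUSG00000050295) and Foxd1 (ENSMUSG00000078302) both lie on chromosome 13, plus strand, from 31806633 to 31812476 and from 98354242 to 98359305. Foxc2 (ENSMUSG00000046714) lies on chromosome 8 from 121116171 to 121118895, plus strand. The 3 forkhead genes are annotated with 1 exon each.

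The 250 bases before the start that RefSeq annotates, which can differ from the outer end of the GENCODE gene given above, are shown for Tcf21 and Foxd1, which had the lowest adjusted p among the members in podocytes, for Foxc1, which was called in endothelial cells, and for Lmx1b, whose window holds the start of a measured RNA. They are RefSeq sequences of GRCm38.p6, read 5′ to 3′ on the strand of the gene, at chr10:22820144-22820393 (minus strand), chr13:98353995-98354244 (plus strand), chr13:31806396-31806645 (plus strand) and chr2:33641099-33641348 (minus strand). Capitals mark every match, on either strand, to an E-box (CANNTG) or a GC box (GGGCGG, reverse CCGCCC).
Tcf21: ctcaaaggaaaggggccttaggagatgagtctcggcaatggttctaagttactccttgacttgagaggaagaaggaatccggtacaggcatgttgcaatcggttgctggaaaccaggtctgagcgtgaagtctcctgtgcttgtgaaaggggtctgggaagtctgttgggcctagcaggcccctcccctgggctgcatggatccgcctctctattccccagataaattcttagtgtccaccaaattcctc
Foxd1: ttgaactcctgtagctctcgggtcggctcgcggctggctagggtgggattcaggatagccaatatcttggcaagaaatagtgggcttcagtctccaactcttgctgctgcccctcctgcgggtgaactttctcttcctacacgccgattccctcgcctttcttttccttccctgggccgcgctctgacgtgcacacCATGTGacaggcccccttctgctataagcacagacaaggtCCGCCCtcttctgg
Foxc1: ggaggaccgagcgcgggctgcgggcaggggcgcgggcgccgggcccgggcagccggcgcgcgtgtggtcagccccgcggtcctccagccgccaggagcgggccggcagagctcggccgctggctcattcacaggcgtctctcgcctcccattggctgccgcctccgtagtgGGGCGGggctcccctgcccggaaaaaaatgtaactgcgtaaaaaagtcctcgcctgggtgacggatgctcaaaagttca
Lmx1b: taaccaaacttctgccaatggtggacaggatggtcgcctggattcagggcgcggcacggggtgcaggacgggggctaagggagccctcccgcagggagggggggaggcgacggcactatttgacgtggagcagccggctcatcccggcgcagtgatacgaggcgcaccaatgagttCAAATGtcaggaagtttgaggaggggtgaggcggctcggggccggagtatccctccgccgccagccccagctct
An E-box was found in the windows of Foxd1 and Lmx1b, and in 66.2% of 32851 promoter windows of the same length. A GC box was found in those of Foxc1 and Foxd1, and in 32.7% of all windows. No window held TGTTTAC, the forkhead core (3.17% of all windows), GCGTGGG, a WT1 and EGR core (4.30%), TAATTA, a homeodomain site (4.84%), or TATAAA (12.4%), in either direction. The matches are a description of letters and not of bound sites. CpG dinucleotides numbered 5 in the Tcf21 window, 12 in that of Foxd1, 19 in that of Lmx1b and 29 in that of Foxc1, against a median of 6.

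The libraries held 5532, 9649, 10621 and 7521 barcodes (young replicates 1 and 2, then aged replicates 1 and 2, the order used throughout). Filters on genes, mitochondrial counts and doublets left 28000 cells with a median of 1258 to 3730 unique molecular identifiers (UMIs) per library. Cells were clustered without the 6 members and named from markers that exclude them. Podocytes numbered 1745, 571, 975 and 644. Young replicate 2 stood apart: 53.5% of its cells, against 0.470% to 1.45% elsewhere, fell in clusters that carried markers of several cell classes and were left unnamed. The largest of these clusters held 2390 cells of that library. Its best-matching class was podocyte, with all 10 podocyte markers detected. Another, best matched by mesangial cells, held 1022. The podocyte and mesangial sums of young replicate 2 leave these cells out. With each cell named by itself instead of by cluster, that library gave 1509 podocytes. Between 9 and 31 barcodes were shared by any pair of libraries. In the podocyte sums all 10 podocyte markers were present, at 22870 to 24520 CPM together (CPM, the UMI count scaled to a common library total). Beside them stood 44.8 to 117 CPM for 9 endothelial and 17.8 to 29.5 CPM for 7 mesangial markers. The highest other list was that of 6 fibroblast markers, at 298 to 408 CPM with 3 of them at 0 in each library. The 7 parietal epithelial markers were at 45.6 to 82.0 CPM.

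Wt1, Tcf21, Foxc2, Foxd1 and Lmx1b were mainly podocyte genes in these cells, and Foxc1 was not. Of the UMIs of all kept cells, podocytes held 83.3% for Lmx1b, 83.0% for Tcf21, 80.9% for Foxd1, 79.0% for Wt1 and 74.2% for Foxc2, but 36.0% for Foxc1. The levels below are CPM of the UMIs summed over the cells of a class in a library. Because 3′ UMI counts do not scale with transcript length, they are compared here between genes only as counts.

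In podocytes, Tcf21 was at 1043 and 974 CPM in the young and 832 and 709 CPM in the aged libraries. Wt1 was at 629 and 757 CPM in the young and 767 and 746 CPM in the aged ones. These were the most abundant members in every library; Tcf21 was above Wt1 in 3 of 4 libraries and below it in aged replicate 2. Foxd1 followed at 393 and 426 CPM against 347 and 268 CPM. Foxc2, at 185, 196, 212 and 230 CPM, and Foxc1, at 149, 196, 194 and 198 CPM, differed little from each other and had the same count in young replicate 2. Lmx1b was the least abundant in every library, at 111 and 152 CPM in the young and 108 and 109 CPM in the aged ones.

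**Figure D1:**
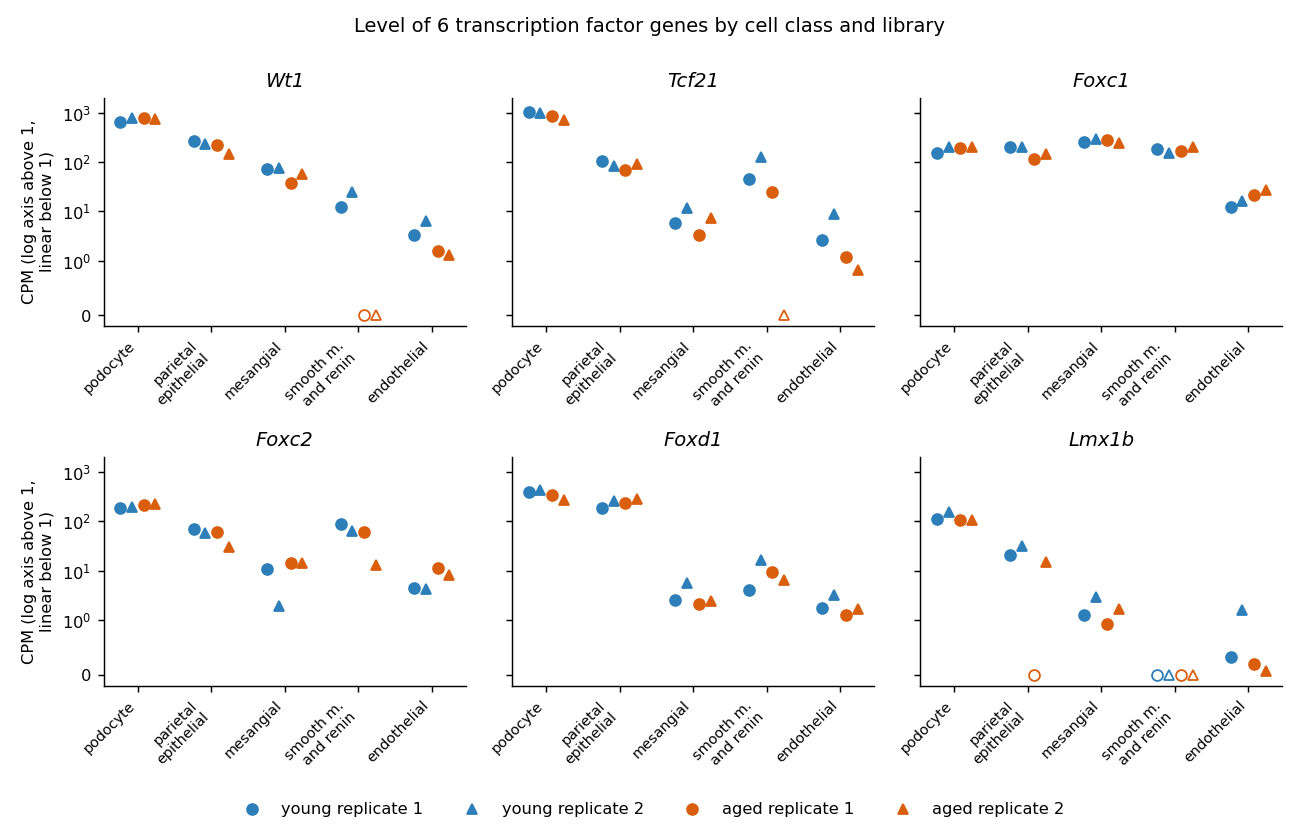
CPM of each member (y axis, logarithmic above 1) in 5 cell classes (x axis), with 1 point per library and open symbols for 0 UMIs. Tcf21, Wt1, Foxc2, Foxd1 and Lmx1b were highest in podocytes in nearly every library (Foxd1 in aged replicate 2 was at 268 CPM in podocytes and 279 in parietal cells), whereas Foxc1 stood between 116 and 288 CPM in 4 classes.

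Foxc1 was higher in mesangial cells, which support the capillary loops, than in podocytes in all 4 libraries. Its mesangial level was 251 and 288 CPM in the young and 280 and 239 CPM in the aged libraries, which is 121% to 169% of the podocyte level of the same library. The difference in level between these classes is a description, as the classes come from the same transcriptomes. In smooth muscle and renin cells, the contractile and renin-making cells of the arterioles (35 to 79 cells per library), Foxc1 was at 185, 150, 163 and 202 CPM. In the parietal epithelial cells of Bowman's capsule (25 to 47 cells per library), it was at 198 and 203 CPM in the young and 116 and 147 CPM in the aged libraries. Endothelial cells had much less, 12.2, 15.7, 21.2 and 27.1 CPM.

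Foxc2, the close relative of Foxc1, did not share this distribution. In mesangial cells it was at 10.9, 1.92, 14.5 and 14.5 CPM, which was 0.98% to 6.84% of the podocyte level. Smooth muscle and renin cells had 90.5, 64.8, 62.5 and 13.0 CPM, the last from 2 UMIs. Parietal cells had 70.8, 57.2, 61.8 and 30.4 CPM. Across the 16 sums of the 4 glomerular classes (podocyte, mesangial, endothelial, parietal epithelial), the Pearson r of log2(CPM + 1) between Foxc1 and Foxc2 was 0.453. Foxc1 had r of 0.463 to 0.495 with Foxd1, Lmx1b and Tcf21, but 0.79 with Wt1. Tcf21 and Foxd1 had the highest r of any pair of members, 0.939. These sums share libraries and cells, so the values are descriptions.

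Wt1 was found in mesangial cells above the median level that podocyte markers reached there, though not above each of them. Its mesangial level was 73.3 and 76.0 CPM in the young and 36.7 and 55.5 CPM in the aged libraries, 4.79% to 11.7% of the podocyte level. In the same sums the median of the 10 podocyte markers was 0.794% to 1.27% of its podocyte level. Among those markers Synpo, an actin-associated protein, was the highest, at 6.91% to 9.19%, below Wt1 in both young and above it in both aged libraries. Tcf21 stood at 0.394% to 1.19%, Foxd1 at 0.607% to 1.36% and Lmx1b at 0.869% to 1.90%, near the marker median. A Wt1 UMI was present in 30.1%, 26.9%, 18.9% and 33.9% of mesangial cells, whose median depth was 3718 to 7032 UMIs. In leukocytes, which should lack the gene, the shares were 0.524%, 2.81%, 0.400% and 0.401%, at a median depth of 1703 to 7360 UMIs.

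Parietal epithelial cells carried Foxd1, Wt1, Foxc1 and Foxc2 at a sizeable part of the podocyte level. Foxd1 was at 191 and 261 CPM in the young and 232 and 279 CPM in the aged parietal sums, or 48.7%, 61.3%, 66.9% and 104% of the podocyte level. Wt1 was at 262, 235, 224 and 147 CPM, or 19.7% to 41.7%. Foxc1 stood at 59.6% to 133% and Foxc2 at 13.2% to 38.3% of the podocyte level. The podocyte markers had a median of 3.62% to 9.70% there, with single markers up to 30.2%. In aged replicate 2 the highest marker, at 24.3%, stood above Wt1 at 19.7% and Foxc2 at 13.2%. In young replicate 2 the highest, at 30.2%, stood above Foxc2 at 29.1%. Tcf21 lay at 8.36% to 12.9% of its podocyte level, within the range of those markers. Lmx1b gave 3, 5, 0 and 3 UMIs; in aged replicate 1 it was seen in 0 of 25 cells, which allows a share of up to 12%. The parietal sums also held 984 to 1609 CPM of 7 smooth muscle and renin markers, of which 5 were at 0 in each library, beside 1182 to 1920 CPM of 7 parietal markers. The part of other cells' RNA in these levels was not tested.

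**Figure D2:**
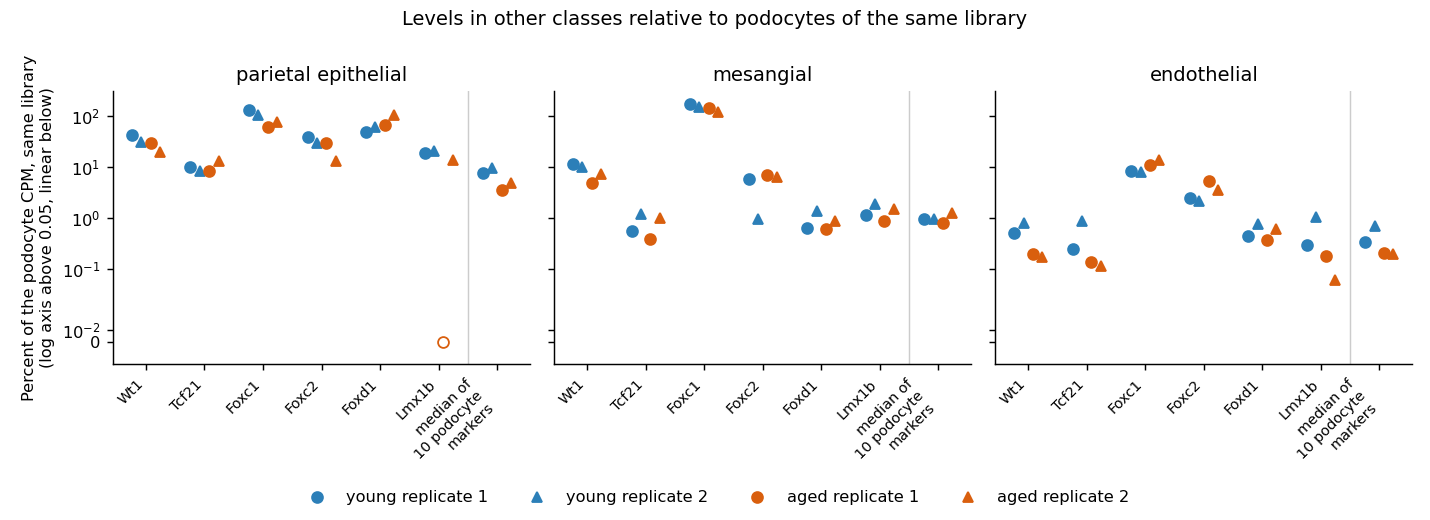
Level of each member in parietal epithelial, mesangial and endothelial cells as a percentage of its podocyte CPM in the same library (y axis, logarithmic above 0.05), beside the median of 10 podocyte markers; points are libraries. In mesangial cells Foxc1 (121% to 169%) and Wt1 (4.79% to 11.7%) lay above the marker median (0.794% to 1.27%), and Tcf21, Foxd1 and Lmx1b lay near it. Foxc2 (0.98% to 6.84%) lay above it too, except in young replicate 2, where it was near it.

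Tcf21 was also counted in smooth muscle and renin cells of 3 libraries, at 45.3 and 126 CPM in the young and 24.0 CPM in aged replicate 1. No UMI was seen in the 35 cells of aged replicate 2, which allows a share of up to 8.57%. That class held too few cells for a test. Lmx1b had no UMI in this class in any library, with 0 of 68, 79, 57 and 35 cells, which allow shares of up to 4.41%, 3.80%, 5.26% and 8.57%.

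Podocytes formed 2 named clusters, one led by Gas1 (414 to 1042 cells per library) and one led by Nphs1 (157 to 703 cells). Wt1, Foxc1 and Foxc2 were higher in the Gas1 cluster in all 4 libraries, by a ratio of 1.16 to 1.20, 1.30 to 1.52 and 1.06 to 1.27. Tcf21 was lower there in all 4, at 0.747 to 0.961 of its level in the Nphs1 cluster. Foxd1 was higher in 3 and Lmx1b in 2 of 4 libraries, so these genes had no common direction. The clusters differed in depth, with a median of 4798 against 3197 UMIs per cell in young replicate 1.

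The first comparison asked whether the podocyte level of each gene differed between young and aged glomeruli. None of the 6 members passed an adjusted p of 0.05 in edgeR's quasi-likelihood test, where 6.19% of 10887 genes did (674 genes; 4.11% were higher and 2.09% lower in aged). At an unadjusted p under 0.05 there were 3 members, beside 1886 of the 10887 genes, and DESeq2 also called 0. The median log2 fold change (log2FC, aged over young) of the members was -0.01, beside 0.01 over all genes tested. The aged libraries lay outside the young ones for 4 members, beside 46.4% of all genes: above them for 1, beside 18.4% of all genes, and below them for 3, beside 28%.

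Tcf21 and Foxd1 had the lowest adjusted p, and both aged libraries lay below both young ones. Tcf21 had a mean of 1008 ± 48.8 CPM in the young and 771 ± 86.8 CPM in the aged libraries (SD, n = 2 each). Its log2FC was -0.34 (SE 0.14), with an edgeR adjusted p of 0.173. Foxd1 stood at 409 ± 23.3 CPM in the young and 307 ± 55.5 CPM in the aged libraries. Its log2FC was -0.36 (SE 0.13, edgeR adjusted p 0.125). Lmx1b was also lower in both aged libraries, by 0.20 on the log2 scale (SE 0.14, adjusted p 0.504). However, young replicate 1, at 111 CPM, was close to the aged libraries at 108 and 109 CPM. Within the Nphs1 cluster, Tcf21 overlapped between ages (1159 and 1005 CPM young, 1057 and 785 CPM aged), as did Lmx1b. In the Gas1 cluster neither overlapped (Tcf21 at 994 and 966 against 789 and 698 CPM). Foxd1 was lower in both aged libraries in each cluster. The part of the cluster mix in these differences was not tested.

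The 2 FOXC genes and Wt1 had values on the other side of 0. Foxc2 was higher in both aged libraries (log2FC 0.27, SE 0.13, adjusted p 0.262). Foxc1 (0.25, SE 0.13, adjusted p 0.340) and Wt1 (0.19, SE 0.13, adjusted p 0.544) overlapped between the groups, because young replicate 2 was at the aged level. Several of these values depended on single young libraries. Without young replicate 2, the log2FC was 0.42 for Foxc1, -0.42 for Tcf21 and -0.33 for Foxd1. Without young replicate 1, it was -0.38 for Foxd1 and -0.40 for Lmx1b. Each of these fits leaves a single young library, so only the values are given.

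**Figure D3:**
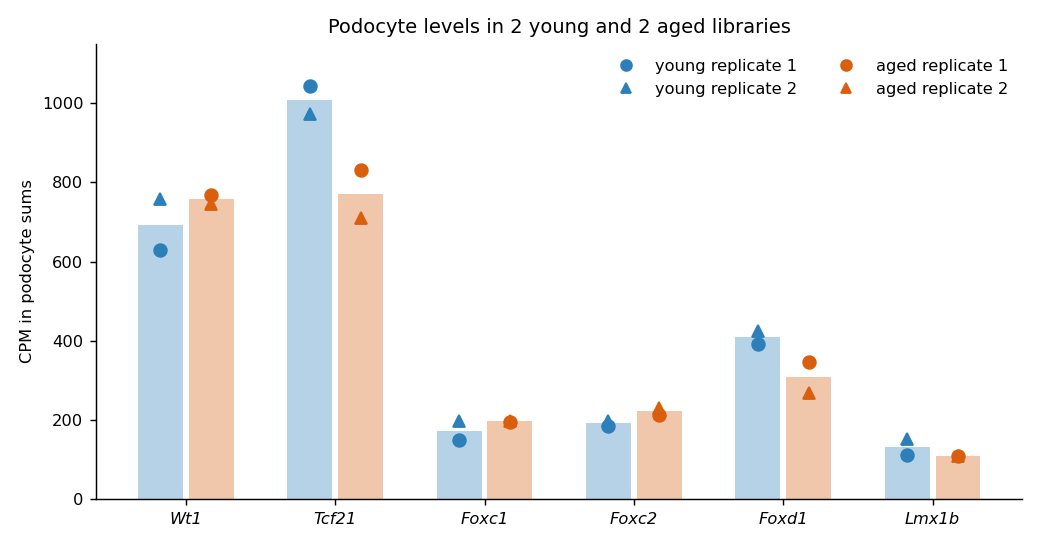
CPM of the 6 members in podocyte sums (y axis, from 0); bars are means of 2 libraries and points are the single libraries. Tcf21, Foxd1 and Lmx1b were lower in both aged libraries and Foxc2 higher, and none of the 6 differences passed the adjusted threshold.

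The share of podocytes with at least 1 UMI was compared after every cell was thinned to 2000 UMIs, which left out 3.42% to 15.4% of podocytes as too shallow (115, 88, 73 and 22 cells). Tcf21 was then seen in 84.2% and 82.0% of young and 78.8% and 74.1% of aged podocytes. Foxd1 was seen in 51.6% and 56.9% of young and 48.2% and 43.1% of aged podocytes. For both genes the aged libraries lay below the young ones, with mean differences (aged minus young) of -6.64 and -8.61 percentage points. The exact two-sided permutation p was 0.33 for each, the smallest that 2 against 2 libraries allow. Without thinning the sign turned for both (1.80 and 1.08 points higher in aged); the aged podocytes were deeper, with medians of 5813 and 7660 UMIs against 4198 and 5678.

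At 1000 UMIs the differences were -8.58 points for Tcf21, -4.62 for Foxd1, 5.20 for Wt1 and 1.20 for Foxc2, so the order of their sizes depended on the depth chosen. The other shares at 2000 UMIs were as follows. Foxc1 was seen in 23.7% and 29.0% of young and 31.4% and 29.4% of aged podocytes (exact p 0.33, permutation). Foxc2 was seen in 30.0% and 30.2% against 31.0% and 35.4% (exact p 0.33, permutation). Wt1, at 69.1% and 78.3% against 75.9% and 74.4%, and Lmx1b, at 19.1% and 23.0% against 19.7% and 19.6%, overlapped between ages (exact p 1.0 for each, permutation). Unthinned, the shares for Wt1 were 87.6%, 87.4%, 93.4% and 95.5%, for Tcf21 95.0%, 92.5%, 95.6% and 95.5%, and for Lmx1b 36.3%, 50.3%, 43.3% and 51.9%.

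A thinned podocyte had a UMI of 2.78, 2.99, 2.85 and 2.76 members on average. Cells without any member numbered 18 of 1630, 2 of 483, 11 of 902 and 9 of 622. All 6 members were seen together in 0.245% to 0.804% of cells. Joint detection of pairs was close to the product of the single shares: over 15 pairs in 4 libraries the ratio had a median of 1.00 and ran from 0.842 to 1.21, both ends from Foxc2 with Foxd1.

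Mesangial cells were compared next. Of the 4 members that passed the count filter (Wt1, Tcf21, Foxc1, Foxc2), none was called by edgeR, where 6.75% of 10568 genes were (4.32% higher, 2.42% lower); 2 had an unadjusted p under 0.05, beside 2315 of all genes, and DESeq2 called 0 of the 3 it gave an adjusted p. The aged libraries lay above the young ones for 1 member (20.3% of all genes) and below them for 1 (34.2%). Foxc1, the most abundant, had a log2FC of 0.05 (SE 0.16, adjusted p 0.896). Wt1 was lower in both aged libraries, 46.1 ± 13.3 CPM against 74.7 ± 1.93 CPM (SD, n = 2 each), with a log2FC of -0.59 (SE 0.20, adjusted p 0.103). Without aged replicate 2 it was -0.88, without aged replicate 1 -0.35, and with mixed cells kept -0.17 (adjusted p 0.738). Foxc2 was higher in both aged libraries (log2FC 1.11, SE 0.45, adjusted p 0.166), but its 2 UMIs in young replicate 2 against 17 in young replicate 1 set the young mean. Its log2FC was 0.50 without young replicate 2, 3.01 without young replicate 1 and 1.13 without aged replicate 2. Fits without a library leave a single one in that group, so only their values are given.

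The young and aged mesangial cells came largely from different clusters. One, led by Cxcl13 and Ccl2, had 673 and 544 cells from the aged libraries but 23 and 13 from the young ones, and another, led by Gucy1a3 and Sfrp2, had 37 and 17 aged but 378 and 248 young cells, mixed cells included. In the former, Wt1 was at 71.1 CPM in young replicate 1 (4 UMIs in 21 cells) and at 36.2 and 54.3 CPM in the aged libraries. In the latter it was at 73.4 and 78.2 CPM in the young and 53.7 CPM in aged replicate 1 (7 UMIs in 31 cells). Age and cluster cannot be told apart for most of these cells.

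Endothelial cells were where members passed the test: 4 of the 5 that passed the count filter were called, 2 higher and 2 lower, beside 6.22% of 12996 genes (4.11% higher, 2.11% lower). DESeq2 called 2 of the 5, Tcf21 and Foxc1, and 2 of 5 were called with cells named one by one, where Foxc1 (0.69) and Foxc2 (0.96) were not. The age groups did not overlap for any of the 5, beside 52.5% of all genes: 2 were above (15.3% of all genes) and 3 below (37.3%). The levels were low, between 0.823 and 27.1 CPM, and the called pairs went in opposite directions: the FOXC genes rose, and Wt1 and Tcf21 fell.

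Foxc1 rose from 14.0 ± 2.48 to 24.1 ± 4.19 CPM (SD, n = 2 each), on 75, 58, 326 and 395 UMIs. The log2FC was 0.93 (SE 0.19, edgeR adjusted p 0.00514), or 1.91-fold. A Foxc1 UMI was present in 3.08%, 4.10%, 5.15% and 9.0% of endothelial cells, at median depths of 2305, 2629, 2326 and 3170 UMIs. In leukocytes the shares were 0%, 0.562%, 0.400% and 0.802%, where 0 of 191 cells allows up to 1.57%. Foxc2 rose from 4.46 ± 0.159 to 9.77 ± 2.36 CPM, on 28, 16, 176 and 118 UMIs (log2FC 1.24, SE 0.27, adjusted p 0.00835). Its endothelial share was 1.11%, 1.24%, 2.83% and 2.87%, and its leukocyte share 0%, 1.69%, 0.20% and 0.134%, so in young replicate 2 it was not above the leukocyte level. Without aged replicate 1, the Foxc2 value was 0.97 (adjusted p 0.0634).

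Markers of mesangial cells, in which Foxc1 is high, had a higher sum in the aged endothelial libraries, whereas their median overlapped between ages. The 7 markers together were at 41.6 and 62.2 CPM in the young and 105 and 116 CPM in the aged libraries, with none at 0. Relative to mesangial cells of the same library their sum was 0.428%, 0.647%, 1.16% and 1.35%, and no single marker passed 3.15%. Their median was 0.153%, 0.348%, 0.242% and 0.208%, highest in young replicate 2. Foxc1 was at 4.87%, 5.47%, 7.58% and 11.3% of its mesangial level, above each of those markers in every library. Foxc2 was at 41.8% to 226% of its mesangial level. The 7 parietal epithelial markers were also higher in both aged libraries, at 13.9, 18.7, 25.4 and 38.1 CPM with 5, 2, 0 and 2 of them at 0. The 7 smooth muscle and renin markers were at 30.7, 22.0, 34.0 and 24.6 CPM. The part of these markers' cells in the rise of Foxc1 was not tested.

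By cluster, 7 endothelial clusters had at least 50 cells in each library. Foxc1 was higher in each aged library than in each young one in 5 of them, and Foxc2 in 3. In the other direction, Wt1 was lower in each aged library in 5 and Tcf21 in 3. The share of all genes was not counted by cluster. In the cluster led by Sele, mostly aged cells, Foxc1 was at 5.11 and 15.8 against 24.1 and 28.2 CPM. In the cluster led by Ptpru, mostly young cells, it was at 14.1 and 9.66 against 18.6 and 32.6 CPM. These Foxc1 values rested on 3 to 167 UMIs a library in the Sele and Ptpru clusters. Foxc2 had only 1 and 0 UMIs in the young libraries of the Sele cluster. In the cluster led by Meg3, also among its 3, it had 1 and 1. Tested alone, the Ier5l cluster gave a log2FC of 0.98 for Foxc1 (adjusted p 0.0948) and the Ptpru cluster 1.20 (adjusted p 0.060). Neither passed the threshold, and both values were as large as in the whole class; in the Ier5l cluster Foxc2 was at 1.00 (adjusted p 0.393).

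**Figure D4:**
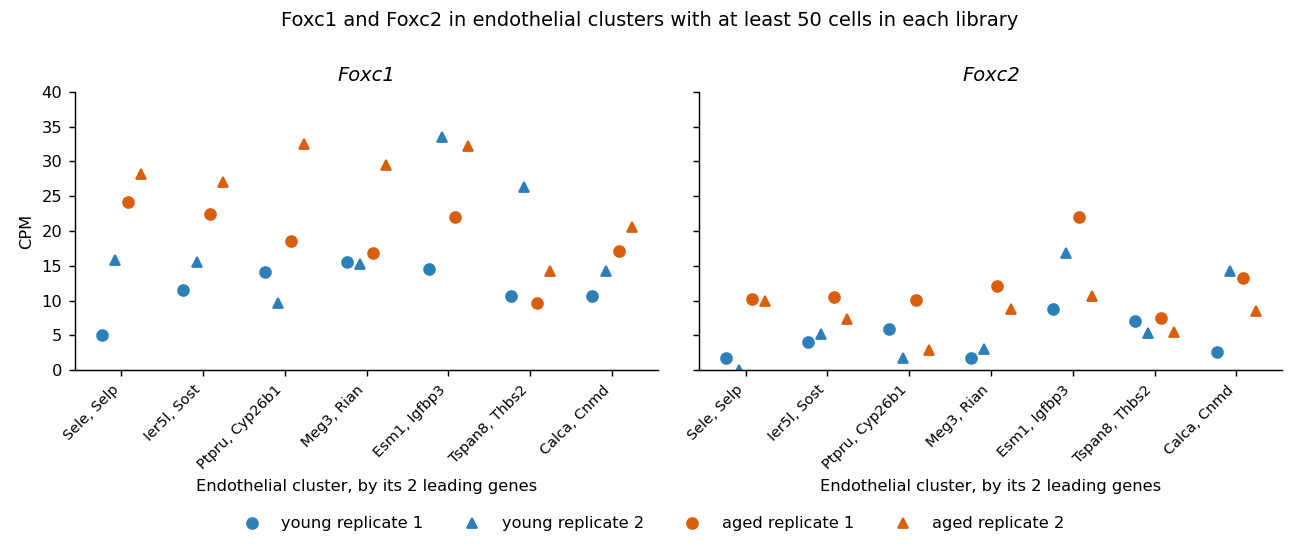
CPM of Foxc1 and Foxc2 (y axis, from 0) in 7 endothelial clusters, named by leading genes (x axis), with 1 point per library. Foxc1 did not overlap between ages, aged higher, in 5 clusters, and overlapped in those led by Esm1 and Tspan8.

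Wt1 fell in endothelial cells from 4.76 ± 2.11 to 1.43 ± 0.180 CPM (log2FC -1.52, SE 0.38, edgeR adjusted p 0.020) and Tcf21 from 5.65 ± 4.30 to 0.996 ± 0.245 CPM (-2.23, SE 0.47, adjusted p 0.00585). These were 19 to 24 UMIs of Wt1 and 12 to 32 of Tcf21 per library. Both were near the leukocyte level, which rested on 1, 5, 5 and 3 UMIs of Wt1 and 1, 8, 4 and 7 of Tcf21. Wt1 was above that level except in young replicate 2. In young replicate 1 the order is uncertain, as 3 UMIs in leukocytes would be 6.59 CPM. Leukocytes had 2.20, 11.5, 1.05 and 0.498 CPM of Wt1, where endothelial cells had 3.26, 6.25, 1.56 and 1.30 CPM. For Tcf21 the leukocyte values were 2.20, 18.4, 0.839 and 1.16 CPM and the endothelial ones 2.61, 8.69, 1.17 and 0.823 CPM. The share of endothelial cells with Wt1 was 0.770%, 1.78%, 0.415% and 0.486%. The source of the Wt1 and Tcf21 UMIs in endothelial cells was not tested. The podocyte markers had the same order of libraries as the endothelial CPM of both genes, with a median of 0.348%, 0.716%, 0.209% and 0.199% of their podocyte level. Without young replicate 2 neither gene was called (Wt1 -1.11, adjusted p 0.259; Tcf21 -1.30, adjusted p 0.246), and Wt1 was not called without aged replicate 1 (-1.65, adjusted p 0.0526) or aged replicate 2 (-1.40, adjusted p 0.0871). Foxd1 was not called (-0.57, SE 0.42, adjusted p 0.520), and Lmx1b had 1 to 6 UMIs and was not tested.

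In parietal epithelial cells none of the 4 members tested (Wt1, Tcf21, Foxc1, Foxd1) was called by edgeR, where 5.48% of 3028 genes were (2.61% higher, 2.87% lower). None had an unadjusted p under 0.05, beside 542 of all genes, and DESeq2 gave an adjusted p for 1 of them, Foxd1, which it did not call. Wt1 (-0.47, SE 0.31, adjusted p 0.447) and Foxc1 (-0.59, SE 0.33, adjusted p 0.339) were lower in both aged libraries, as were 23% of all genes, while 23.8% were higher and no member was. Foxd1 (0.18, SE 0.29, adjusted p 0.835) and Tcf21 (-0.19, SE 0.41, adjusted p 0.881) overlapped. With 15 to 55 UMIs of Wt1, Foxc1 or Foxd1 per library, these errors leave room for changes of the size seen in podocytes.

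**Figure D5:**
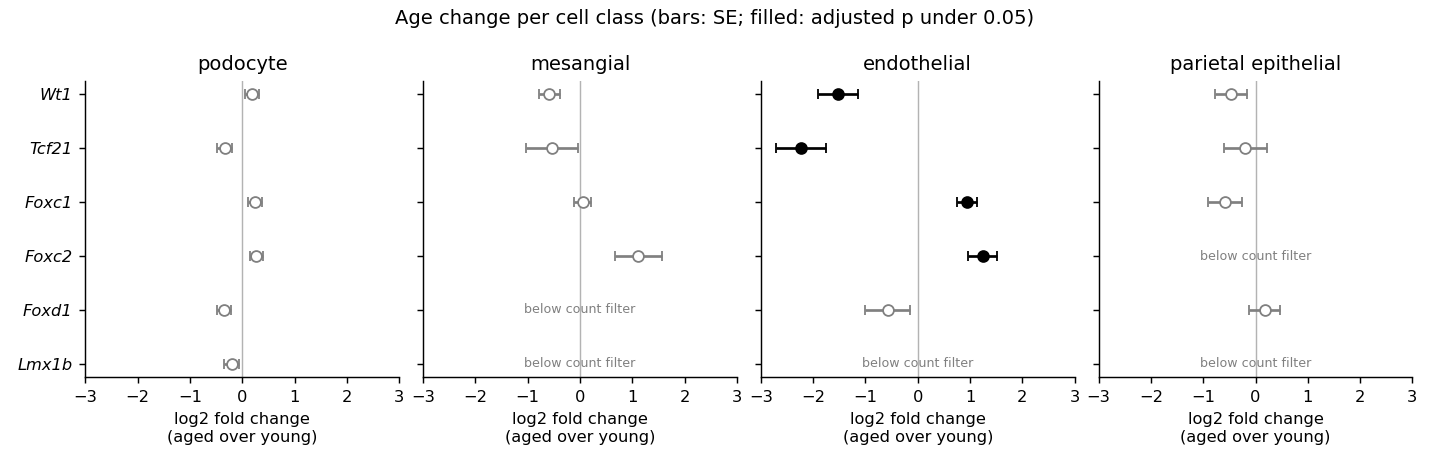
log2FC, aged over young (x axis), of each member in the 4 glomerular classes; bars are SE from edgeR and filled points have an adjusted p under 0.05. The 4 filled points are Wt1, Tcf21, Foxc1 and Foxc2 in endothelial cells, and no member in podocytes passed the threshold.

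Whether the age change of a gene differed between classes was tested as an interaction, with the library as a block, for 35 combinations of member and class pair. Between podocytes and mesangial cells only Wt1 passed (difference of log2FC values 0.72, SE 0.21, adjusted p 0.0221), beside 5.4% of 12492 genes. Between podocytes and endothelial cells 4 members did, beside 6.96% of 12935 genes: Wt1 (1.68, SE 0.33, adjusted p 0.0005), Tcf21 (1.81, SE 0.39, adjusted p 0.00163), Foxc1 (-0.68, SE 0.17, adjusted p 0.00785) and Foxc2 (-0.99, SE 0.26, adjusted p 0.0112). Between endothelial and parietal cells Foxc1 passed (1.43, SE 0.39, adjusted p 0.0364), beside 0.871% of 11481 genes. No member passed between podocytes and parietal cells, mesangial and endothelial cells, or mesangial and parietal cells, where 1.58%, 2.32% and 0.795% of all genes did.

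Other transcription factors known from podocytes were read from the same podocyte fit. Of 22 such genes 20 were tested and 4 were called, 1 higher and 3 lower in aged, which is 20% of the tested ones beside 6.19% of all genes (4.11% higher, 2.09% lower), with a median log2FC of 0.00, beside 0.01 over all genes. Klf15, a Krüppel-like factor tied to podocyte differentiation, rose from 4.83 and 5.83 to 25.9 and 22.2 CPM (log2FC 2.26, SE 0.23, adjusted p 5.15e-08). Klf4, another Krüppel-like factor, fell from 233 and 273 to 115 and 102 CPM (-1.16, SE 0.13, adjusted p 2.82e-07). Sox4, an HMG-box factor of developing tissues, fell from 9.67 and 8.75 to 0.724 and 0.829 CPM (-3.51, SE 0.43, adjusted p 1.36e-06). The aged Sox4 values lie near the level of 3 UMIs in these sums, 0.543 and 0.622 CPM, so the size of its change is uncertain. The groups did not overlap for any of these 3 genes, nor for 46.4% of all genes tested.

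Proteins that partner with the 6 factors were listed as well: the E proteins that pair with TCF21, the ID proteins that block such pairs, the LMX1B cofactor LDB1 and WT1-binding proteins. Of 13 genes, 11 were tested and 1 was called (9.09%, beside 6.19% of all genes). Cited2, a transcriptional coregulator, rose from 287 and 282 to 349 and 467 CPM (log2FC 0.58, SE 0.14, adjusted p 0.00940). Id2 (1.09, SE 0.46, adjusted p 0.196), Wtap (-0.29, SE 0.15, adjusted p 0.316) and Wtip (0.22, SE 0.13, adjusted p 0.415) had the next lowest p. The median over the list was 0.02.

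Of 18 podocyte genes described as targets of WT1 or LMX1B, all were tested and 3 were called (16.7%, beside 6.19% of all genes), with a median of 0.00. Arl4c, a small GTPase, rose from 74.3 and 96.9 to 118 and 147 CPM (log2FC 0.71, SE 0.15, adjusted p 0.00177). Scel, which encodes sciellin, rose from 18.5 and 20.7 to 33.8 and 26.3 CPM (0.68, SE 0.18, adjusted p 0.0155). Cd2ap, a slit diaphragm adaptor, had -0.37 (SE 0.13, adjusted p 0.105). The slit diaphragm gene Nphs1 was at 1117, 1262, 1214 and 1245 CPM (0.11, SE 0.14, adjusted p 0.783).

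Several RNAs lie beside or over the members. Wt1os, transcribed away from the Wt1 start, was at 24.8, 32.1, 30.6 and 33.8 CPM in podocytes (log2FC 0.27, SE 0.17, adjusted p 0.461). Its UMIs numbered 99 to 190 per library in podocytes, 5 to 11 in mesangial and 0 to 2 in endothelial cells. C130021I20Rik starts 95 bases before the RefSeq start of Lmx1b, inside the window printed above, and runs the other way. It was at 18.8, 25.0, 19.5 and 21.3 CPM in podocytes (0.00, SE 0.19, adjusted p 0.995), with no UMI in mesangial or parietal and 2 to 3 in endothelial cells. Gm10824 overlaps Tcf21 on the opposite strand and had 7 to 20 UMIs in podocytes (-0.78, SE 0.49, adjusted p 0.460). Whether counting used the strand was not given in the sources used here, so reads of Tcf21 and Gm10824 may not be told apart. Gm20388 spans Foxc2 on the same strand and had 0 UMIs in the 4 glomerular classes, as did Gm38011 over Lmx1b. Of 4 short RNAs annotated upstream of Wt1, inside the Wt1os span, Gm27538 had 23 to 71 UMIs in podocytes (0.29, SE 0.25, adjusted p 0.630), Gm27715 0 to 6, Gm27308 3 to 12 and Gm27636 0.

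The genes whose pattern over the 16 sums was most like a member's were named by Pearson r among 14061 genes. For Tcf21 these were Enpep and Dpp4, both surface peptidases, Zbtb8a and Nphs1 (r 0.986 to 0.989). For Foxd1 they were Mme, a surface peptidase, Tubb2b, Arnt2 and Zfp185 (r 0.987 to 0.992), and for Wt1 Gpx8, Mmp23, R3hdm4 and Sept6 (r 0.983 to 0.991). Foxc1 had other neighbours, Cadm4, Rnf150, Pde3a and Igfbp7 (r 0.971 to 0.976). Foxc2 was nearest to Cd320, Hibadh, Vkorc1 and Hs3st3a1 (r 0.963 to 0.976), and Lmx1b to 2810433D01Rik, Acbd5, Rassf10 and Magi2 (r 0.970 to 0.987). Over 0.95 there were 89 genes for Foxd1, 71 for Tcf21, 49 for Wt1, 23 for Lmx1b, 16 for Foxc1 and 14 for Foxc2. Sums of a class share their cells and sums of a library their depth and free RNA, so these likenesses are descriptions.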

How the data were processed

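Single-cell RNA libraries of 2 young and 2 aged glomerular preparations were used. The authors deposited raw UMI counts per gene and barcode, without normalization. The file headers and the submitters' processing notes name Cell Ranger 6.0.1, whereas the labels' protocols name version 3.1.0 and GRCm38; which made the counts was not settled. Kept barcodes had at least 500 genes and at most 20% mitochondrial UMIs. Scrublet's automatic threshold marked 0.449% of 29876 barcodes, so the highest scores were removed instead at 0.8% per 1000 barcodes (1876, 6.28%).

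Cells were clustered (Python 3.11.15, scanpy 1.11.5, leidenalg 0.10.2; 2000 variable genes without the 6 members, 30 components, 15 neighbours, resolution 1, no integration), and the cluster highest in parietal markers was split at 0.2. A class needed a marker level of at least 0.35 of the best cluster with 3 detected markers; clusters with an unrelated class at 0.25, and single cells with that level and at least 3 UMIs, were left out. Clustering steps and thresholds were set after the data, member levels included, had been seen and after other settings had been tried; the age tests had not been run.

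UMIs were summed per class and library (at least 20 cells) and tested with edgeR 4.0.16 in R 4.3.3 (TMM, default count filter, quasi-likelihood, Benjamini-Hochberg over all genes of a class, called under 0.05). Printed CPM are counts over the summed total without TMM, fold changes use TMM, SE is the size of the log2 fold change over the square root of F, and ± is the SD over 2 libraries. Sums ranged from 129474 to 15393390 UMIs. Intervals and limits (3 counts where 0 were seen) cover counting error only. The fit was tested on simulated data. Alternatives included DESeq2 1.42.0. Of 52636 gene IDs, 99.6% were found in GENCODE vM21 (GRCm38), and 4 of 6 members in the RefSeq promoter table (not Wt1, Foxc2).

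The members and gene lists were chosen with earlier results of these data known. All 6 members are named throughout. From each list the called genes are named (1 called gene is counted but not reported here) and, where fewer than 4 were called, those with the smallest p up to 4, as are RNAs within 5 kb of a member and the 4 genes most like each member; Nphs1, on the target list, and Synpo were named after their values were seen.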

Additional observations from a re-analysis of the deposited data

Results flagged for a closer look

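A difference in age change between cell classes was found by the interaction test for 6 combinations of member and class pair. The values are differences of log2 fold changes, with adjusted p from edgeR. For Wt1 the age change was 0.72 higher in podocytes than in mesangial cells (adjusted p 0.0221) and 1.68 higher than in endothelial cells (0.0005). For Tcf21 it was 1.81 higher in podocytes than in endothelial cells (0.00163). For Foxc1 and Foxc2 it was lower in podocytes than in endothelial cells, at -0.68 (0.00785) and -0.99 (0.0112). For Foxc1 it was 1.43 higher in endothelial than in parietal epithelial cells (0.0364). The mesangial Wt1 change behind the first value was -0.17 with mixed cells kept, against -0.59. The endothelial values of Wt1 and Tcf21 rest on 12 to 32 UMIs per library, near the leukocyte level.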

How the results depend on the processing

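With 2 libraries a side and few UMIs outside podocytes, single libraries set many calls. Values are log2 fold changes unless they are counts of called genes. The number of called genes moved in podocytes from 674 to 251 with DESeq2, 256 with cells named one by one and 310 to 1292 with 1 library left out. In mesangial cells it moved from 713 to 377 (DESeq2), 432 (one by one), 1185 (no filter on low counts), 1177 (mixed cells kept) and 487 to 1683 (1 library left out). In endothelial cells it moved from 808 to 478 (DESeq2) and to 184 and 203 in the clusters led by Ier5l and Ptpru alone, chosen after cluster sizes were seen; leaving out 1 library gave 547 to 764. In parietal cells it moved from 166 to 32 (DESeq2), 0 (one by one), 101 (resolution 0.5), 296 (mixed cells kept) and 94 to 126 (1 library left out).

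The labels do not say whether the replicate numbers pair the samples. Over the tested genes, deviations from the group mean had a correlation of -0.0144 to 0.0994 between libraries of the same number. This correlation cannot exclude a shared batch. With the replicate number as a block, 1570 mesangial and 1532 endothelial genes were called, and Wt1 (-0.63, adjusted p 0.00827) and Foxc2 (1.17, adjusted p 0.0229) were called in mesangial cells; the block changed no other member's call.

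Leaving out 1 library at a time gave these ranges. In podocytes they were 0.088 to 0.29 for Wt1, -0.43 to -0.24 for Tcf21, 0.087 to 0.42 for Foxc1, -0.53 to -0.20 for Foxd1 and -0.40 to -0.012 for Lmx1b. In mesangial cells they were -0.88 to -0.35 for Wt1, -0.091 to 0.20 for Foxc1 and 0.50 to 3.01 for Foxc2; Foxc1 was -0.025 without young replicate 1 and -0.091 without aged replicate 1. In endothelial cells they were -1.93 to -1.11 for Wt1, -2.92 to -1.30 for Tcf21, 0.97 to 1.47 for Foxc2 and -0.96 to -0.21 for Foxd1. In parietal cells they were -0.71 to -0.17 for Wt1, -0.45 to 0.01 for Tcf21 (0.00957 without young and 0.000522 without aged replicate 1) and -0.000899 to 0.40 for Foxd1, the lowest without young replicate 1.

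Endothelial Wt1 lost its call with DESeq2 (-1.55), at resolution 0.5 (-1.38), with doublets kept (-1.40) and with members among the clustering genes (-1.38). Endothelial Foxc1 lost it with cells named one by one (0.69) and in the Ier5l (0.98) and Ptpru (1.20) clusters alone. Endothelial Foxc2 lost it with DESeq2 (1.26), one by one (0.96) and in the Ier5l cluster (1.00). Over all settings the adjusted p was 0.00159 to 0.259 for Wt1, 7.24e-07 to 0.246 for Tcf21, 1.75e-05 to 0.0948 for Foxc1 and 5.8e-05 to 0.393 for Foxc2. Mesangial Foxc2 was called with no filter on low counts (1.16) and with mixed cells kept (1.67), which turned mesangial Tcf21 to 0.60 and left mesangial Wt1 at -0.17 (adjusted p 0.738). Parietal Foxd1 turned to -0.48 one by one. The causes were not tested.

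Of the thinned podocyte shares, in percentage points, Tcf21 (1.80), Foxd1 (1.08) and Lmx1b (4.30) turned without thinning; leaving out 1 library gave -3.07 to 6.11 for Wt1, lowest without young replicate 1, and -3.31 to 0.53 for Lmx1b, highest without young replicate 2. DESeq2 size factors (RLE) in edgeR changed no interaction call, and 20 of 24 similar genes were among the 50 highest by Spearman's rho. Mesangial cells at resolution 0.5 were not run, with under 20 cells in young replicate 2, and DESeq2 gave no adjusted p for 1 mesangial and 3 parietal members.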
